A study of Homo sapiens with 6 samples.

Results

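GADD45A, GDF15 and TP53INP1 are 3 stress genes tied to the tumour suppressor p53, and they were taken by gene symbol as 3 of the 1630 rows of the deposited expression table. Total RNA was sequenced from U87MG, an established human glioblastoma line, in 3 libraries with a hairpin against CREPT (shCREPT, labelled as a CREPT knockdown) and 3 libraries with a control hairpin (shControl). CREPT is the protein made from RPRD1B and binds the tail of RNA polymerase II. Both groups are the same cell line and both carry a hairpin, while the series' design text speaks of wild-type cells; the labels do not say how many hairpin sequences were used or whether the libraries came from separate cultures. The title ties CREPT to glioblastoma proliferation, so the comparison asks how genes that brake growth differ once CREPT is targeted.

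p53 is a transcription factor that DNA damage and other stresses stabilise. Its targets stop the cell cycle, aid repair, start cell death or signal outward, and several of them are also switched on by other stress factors, among them ATF4 and CHOP. GADD45A is a small nuclear protein that binds PCNA and the CDK1 kinase and activates the stress kinase MAP3K4. GDF15 is a secreted hormone of the TGF-beta superfamily that acts through GFRAL and RET in the brainstem and is used as a blood marker of cell stress. TP53INP1 is a nuclear protein that helps kinases such as HIPK2 phosphorylate p53, and in the cytoplasm it binds LC3-family proteins of autophagy.

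Of the 3 genes, GADD45A and GDF15 were higher and TP53INP1 was lower in shCREPT cells, and the groups did not overlap in any of them. GDF15 was 3.25-fold higher, GADD45A 2.33-fold higher and TP53INP1 2.45-fold lower by the ratio of group means. Every row of the table had already been marked significant by the authors for this same contrast, so each of these differences was a condition of being listed and the tests below describe the size and spread of a selected difference. Of the 1184 genes high enough to be tested (at least 1 in at least 3 libraries), 97.9% passed the limma test at 0.05 after adjustment. They split into 40.6% called higher and 57.3% called lower in shCREPT cells, and the groups did not overlap in 96.8%. The authors' deposited table marks every row, 40.3% of them up and 59.7% down. All 3 genes passed that filter.

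RPRD1B itself has no row, and the targeted gene could therefore not serve as a check of the labels. Values are the authors' normalized expression on a scale that the sources used here do not name, so levels are compared between libraries and not between genes. Read depth per library is unknown. Of 9 glioma markers 3 have a row and fell, among them the astrocyte filament gene GFAP (43.12, 43.52 and 49.81 in shCREPT, against 421.04, 447.81 and 432.08 in shControl), and the other 6 have none, so the cell type could be checked no further. Among markers of other cells, 0 of 12 for microglia, macrophages and monocytes and 0 of 9 for T cells are listed. The 3 listed of 7 astrocyte markers fell (summed level 72.53 to 88.86 in shCREPT and 498.3 to 528.5 in shControl), as did the 2 listed of 7 endothelial markers (11.64 to 13.66 in shCREPT and 43.28 to 45.26 in shControl) and the 1 listed of 7 neuronal markers (56.37 to 58.28 in shCREPT and 251.0 to 276.0 in shControl). The summed astrocyte level is mostly GFAP, and under median-of-ratios rescaling SLC1A3 among the astrocyte markers (log2 change −0.24, limma adjusted p = 0.207) and KDR among the endothelial ones (−0.18, adjusted p = 0.124) lost their calls. Of 7 fibroblast and 7 oligodendrocyte lineage markers 2 each are listed, and the 1 tested of each fell. Beside these marker counts, 57.3% of all tested genes were called lower. GFAP and S100B stand in both the glioma and the astrocyte list, so those lists are not separate. S100B was at 0.0 in 1 shCREPT library, as was COL3A1. The mitochondrial ribosomal RNA MT-RNR1 moved with the groups, at 5918.53 to 6891.8 in shCREPT and 3038.14 to 3497.15 in shControl. Under quantile normalization its log2 change was 0.0. That method gives this value to any gene with the same rank in every library, so it is not read as a loss of the difference. The part of these markers and of MT-RNR1 in the changes described here was not tested.

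GDF15 had the largest change of the 3, and its promoter is shown for that reason. The window runs from 250 bases before to 50 bases after the RefSeq transcription start (GRCh38.p14, chr19:18385908-18386207, plus strand), and capitals mark motif matches.

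GDF15: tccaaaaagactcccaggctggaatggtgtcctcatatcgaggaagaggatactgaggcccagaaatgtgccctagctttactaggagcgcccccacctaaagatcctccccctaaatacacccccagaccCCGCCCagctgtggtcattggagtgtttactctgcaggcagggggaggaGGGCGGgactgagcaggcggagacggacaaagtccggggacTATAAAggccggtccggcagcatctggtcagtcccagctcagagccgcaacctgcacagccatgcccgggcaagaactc

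Both strands were searched for 6 motifs. TATAAA, the TATA box core, begins at position −29 on the gene's strand and occurs in 11.5% of the 35116 promoter windows of the same length in the RefSeq table. GGGCGG, the GC box bound by SP1, occurs at −119 on the opposite strand (as CCGCCC) and at −70 on the gene's strand, and 45.0% of all windows hold it. TGANTCA (the AP-1 site; 7.71% of windows), TGATGNAA (the core bound by ATF4 with C/EBP factors; 3.62%), CACGTG (the E-box bound by MYC; 7.26%) and the p53 half-site consensus (6.63%) had no exact match in these 300 bases. A stretch that departs from a consensus at a single base was not counted, so the search does not show that the window lacks a p53 site. The matches did not overlap each other. The window holds 59.3% G and C, against a median of 58.7% over all windows. Of the 3 genes, GDF15 alone has an entry in that table; GADD45A and TP53INP1 have none.

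GADD45A (ENSG00000116717), which slows entry into mitosis and takes part in DNA repair, had values of 83.21, 84.36 and 85.98 in shCREPT libraries, against 36.77, 37.16 and 35.11 in shControl libraries. The 3 shCREPT libraries lay close together and far above the 3 shControl libraries, with the lowest shCREPT value 2.24-fold above the highest shControl value. The means were 84.5 ± 1.39 in shCREPT and 36.3 ± 1.09 in shControl (SD, n = 3 each), which differ by 1.20 ± 0.07 (SE) on the log2 scale with a limma adjusted p of 1.48e-05. The coefficient of variation was 1.65% in shCREPT and 3.0% in shControl, against a median of 12.7% in each group over the tested genes. In GENCODE v29 the gene lies on chromosome 1 from 67685061 to 67688338 on the plus strand (GRCh38), spans 3278 bases with 7 annotated transcripts, 5 of them coding, and overlaps no other annotated gene.

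GDF15 (ENSG00000130513), the secreted stress hormone, had values of 74.87, 66.62 and 67.32 in shCREPT libraries, against 19.23, 21.39 and 23.63 in shControl libraries. All 3 shCREPT values stood above all 3 shControl values, and the ratio between the nearest libraries of the groups was 2.82 and between the farthest 3.89. The means were 69.6 ± 4.57 in shCREPT and 21.4 ± 2.2 in shControl (SD, n = 3 each), and on the log2 scale they differ by 1.66 ± 0.10 (SE; adjusted p = 1.55e-05 by limma). Its coefficient of variation was 6.57% in shCREPT and 10.3% in shControl. The gene lies on chromosome 19 from 18374731 to 18389176 on the plus strand, and the promoter window printed above falls inside that annotated span because GENCODE lists 5 start sites for its 5 transcripts. The microRNA gene MIR3189 lies within GDF15 on the same strand, from 18386562 to 18386634 and outside its exons, and has no row.

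TP53INP1 (ENSG00000164938), the p53 cofactor and autophagy protein, had values of 1.95, 2.06 and 1.79 in shCREPT libraries, against 4.75, 4.76 and 4.68 in shControl libraries. The shCREPT libraries were all low and the shControl libraries all high, with the lowest shControl value 2.27-fold above the highest shCREPT value. The means were 1.93 ± 0.136 in shCREPT and 4.73 ± 0.0436 in shControl (SD, n = 3 each), and the log2 change was −0.97 ± 0.08 (SE; limma adjusted p = 3.39e-05). These are low values, so adding 1 before the logarithm shrinks the change, and a pseudocount of 0.1 gave −1.25 while one of 5 gave −0.49. The coefficient of variation was 7.02% in shCREPT and 0.922% in shControl. TP53INP1 lies on chromosome 8 from 94925972 to 94949411 on the minus strand with 2 annotated transcripts, and the protein-coding gene NDUFAF6 runs across it on the opposite strand. No source used here says whether counting used strand, so reads of TP53INP1 and NDUFAF6 may not have been told apart; NDUFAF6 has no row.

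**Figure D1:**
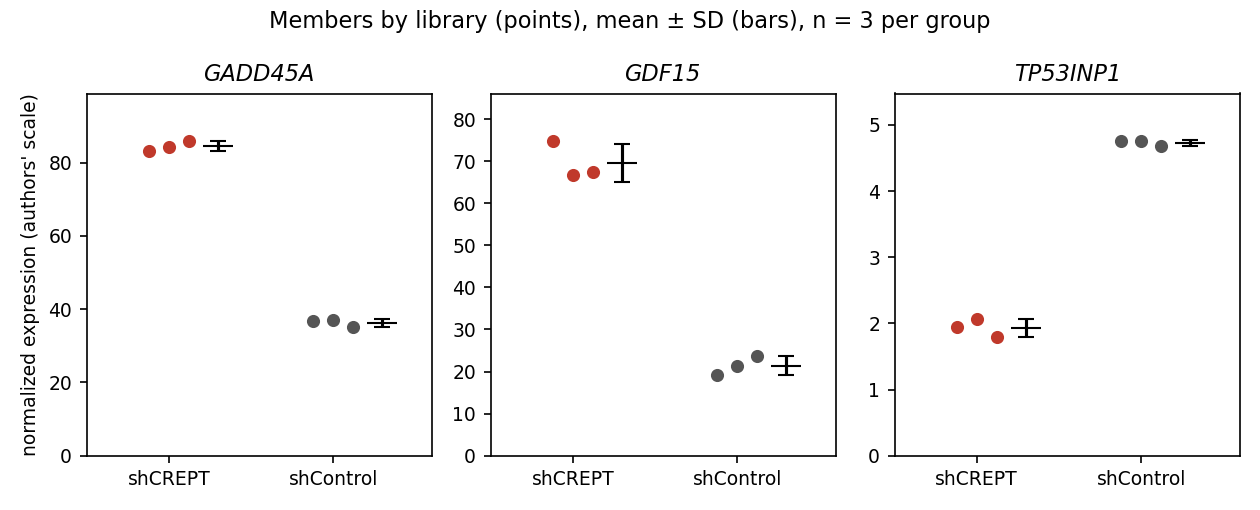
Normalized expression on the authors' scale (vertical axis, starting at 0, a separate range for each gene) of GADD45A, GDF15 and TP53INP1 in each shCREPT and shControl library (points), with the mean and SD of 3 libraries beside them. GADD45A sits at 83.21 to 85.98 in shCREPT and 35.11 to 37.16 in shControl, GDF15 at 66.62 to 74.87 in shCREPT and 19.23 to 23.63 in shControl, and TP53INP1 at 1.79 to 2.06 in shCREPT and 4.68 to 4.76 in shControl.

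Among the genes listed in the same direction, where the 3 changes ranked depended on the scale, since the log2(value + 1) scale shrinks the many low genes. In the authors' deposited table GADD45A has a fold change of 2.35 (log2 1.23, adjusted p = 7e-61) and ranks 456 of 657 genes marked up by the size of its log2 fold. GDF15 has a fold change of 3.3 in the authors' deposited table (log2 1.72, adjusted p = 2.38e-60) and ranks 263 of the same 657. TP53INP1 has a fold change of 0.413 in the authors' deposited table (log2 −1.27, adjusted p = 1.35e-20) and ranks 684 of 973 genes marked down. The smallest absolute log2 fold change in that table is 1.0009, so GADD45A and TP53INP1 stand nearer to that lower limit than GDF15. On the log2(value + 1) scale of the limma fit, the median over the tested genes was 1.10 for genes marked up and −1.10 for genes marked down, which places GADD45A and GDF15 above the median of the genes marked up, and TP53INP1 nearer to 0 than the median of the genes marked down. By size on that scale GDF15 ranked 67 and GADD45A 196 of 495 tested genes marked up, and TP53INP1 ranked 455 of 689 marked down.

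**Figure D2:**
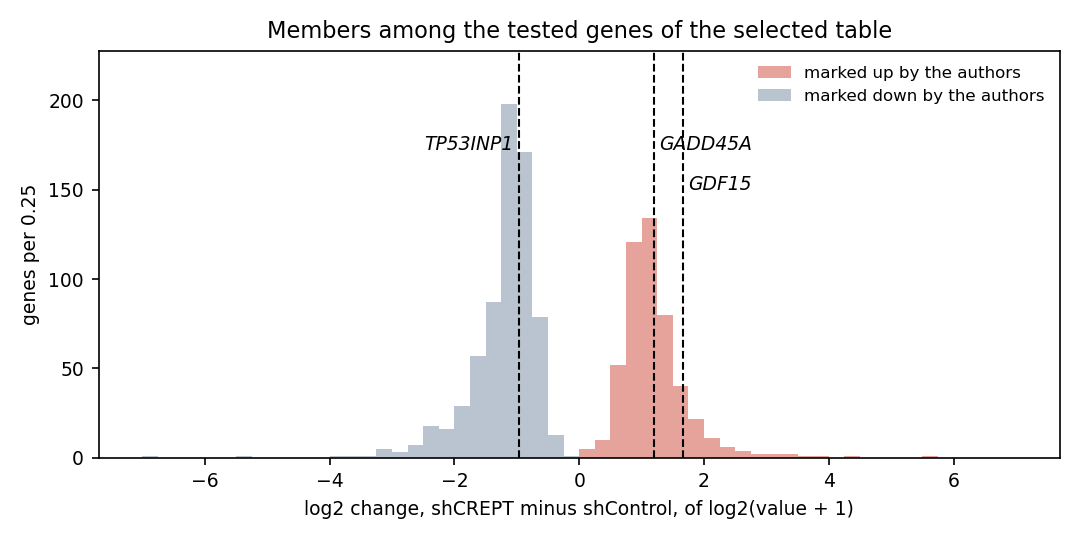
Number of tested genes (vertical axis, per 0.25) by log2 change of shCREPT minus shControl (horizontal axis), split into genes the authors marked up and down, with GADD45A, GDF15 and TP53INP1 as dashed lines. GADD45A at 1.20 and TP53INP1 at −0.97 stand near the peaks of their directions, and GDF15 at 1.66 stands to the right of the peak of the genes marked up.

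A scaling that raises the shCREPT libraries shrinks the change of a gene that fell, such as TP53INP1, and enlarges that of a gene that rose. Median-of-ratios rescaling takes most genes to be unchanged, whereas every listed gene had been selected as changed, 59.7% of them down. Its shift can therefore follow from that selection, and a call lost or reversed under it does not show that the change is absent. The median log2 change over all tested genes was −0.76, and a median-of-ratios rescaling over the listed genes raised the shCREPT libraries by 0.88 (log2) relative to the shControl ones, which moved that median to −0.13 and turned the majority of calls to higher (492 higher, 56.6%, and 377 lower, 43.4%, against 481 higher and 678 lower without it). Relative to the median of −0.76, GADD45A stood 1.95 and GDF15 2.42 above it on the log2 scale, and TP53INP1 stood at −0.21. Under the rescaling GADD45A had a log2 change of 2.06 and GDF15 of 2.51, and TP53INP1 kept its sign and its call with −0.31 ± 0.08 (SE; limma adjusted p = 0.00989, with 3.88e-05 to 0.00989 over its alternatives). Quantile normalization gave 1.42, 1.81 and −0.73 for GADD45A, GDF15 and TP53INP1.

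**Figure D3:**
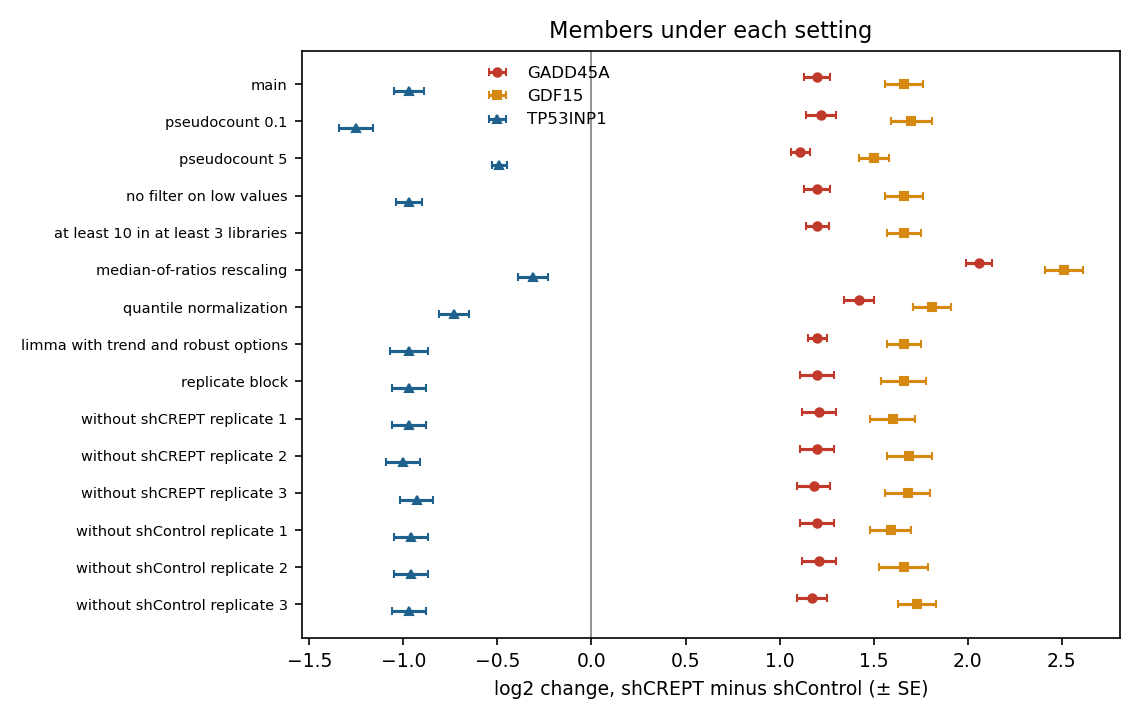
Log2 change of shCREPT minus shControl with its SE (horizontal axis) for GADD45A, GDF15 and TP53INP1 under the main setting and each alternative (rows). TP53INP1 has no point for the minimum of 10 because its values lie below it, and its change ranges from −1.25 with a pseudocount of 0.1 to −0.31 under median-of-ratios rescaling.

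A ratio of a pair of genes within a library does not depend on how that library was scaled, apart from the pseudocount of 1, so the 3 pairs were compared that way. The level of such a ratio depends on the unnamed scale and has no meaning between genes; its difference between groups does. The log2 ratio of GADD45A to TP53INP1 was 4.84, 4.8 and 4.96 in shCREPT libraries, against 2.72, 2.73 and 2.67 in shControl libraries, a difference of 2.16. The log2 ratio of GDF15 to TP53INP1 was 4.68, 4.47 and 4.61 in shCREPT, against 1.81, 1.96 and 2.12 in shControl, a difference of 2.62. In both ratios every shCREPT library stood well above every shControl library. The direction of both differences was a condition of being listed, since GADD45A and GDF15 are marked up and TP53INP1 is marked down for this same contrast.

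The log2 ratio of GDF15 to GADD45A was −0.15, −0.34 and −0.35 in shCREPT, against −0.90, −0.77 and −0.55 in shControl, a difference of 0.46. Here too the groups did not overlap, but the gap between the nearest libraries was smaller than the range of the shControl libraries. An exact two-sided permutation test of 3 libraries against 3 cannot go below 0.1, and each of the 3 ratios gave that smallest p of 0.1, also after adjustment over the 3 pairs.

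**Figure D4:**
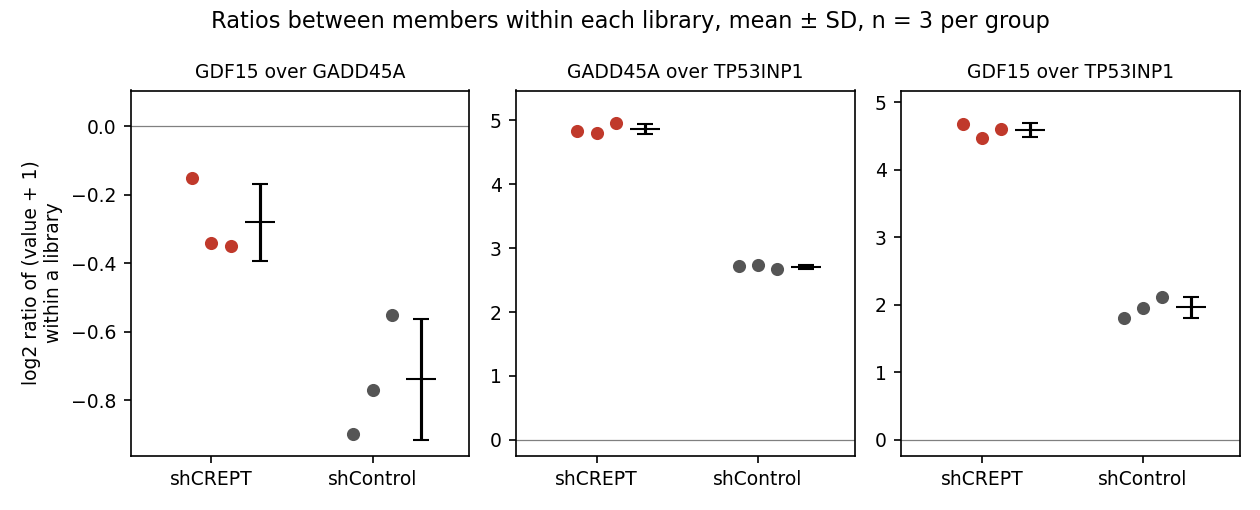
Log2 ratio of (value + 1) between pairs of the 3 genes within each library (vertical axis), for shCREPT and shControl libraries (points) with mean and SD of 3. The ratios to TP53INP1 differ by 2.16 and 2.62 between groups, and that of GDF15 to GADD45A by 0.46 with a wider spread in shControl.

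The 3 genes were next set beside other targets of p53. Of a list of 92 direct p53 targets 14 have a row and 12 were tested, and 5 of them rose and 7 fell (41.7% rose, against 40.6% of all tested genes), with a median log2 change of −0.98 against −0.76 over all tested genes. Leaving out GADD45A, GDF15 and TP53INP1, 3 rose and 6 fell. The other 78 targets have no row, among them CDKN1A, the main cell cycle inhibitor under p53, MDM2, which degrades p53, and the death genes BBC3 and BAX; such absence does not show that a gene is silent or unchanged.

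E2F7, a repressor of E2F target genes, rose with GADD45A and GDF15, at 17.45, 18.59 and 17.28 in shCREPT and 8.15, 7.91 and 8.34 in shControl. SFN, which encodes 14-3-3 sigma and holds cells before mitosis, rose 2.11-fold, and XAF1, which counters an inhibitor of caspases, rose 2.14-fold. THBS1, the angiogenesis inhibitor thrombospondin, fell 6.48-fold, at 25.23, 26.52 and 25.98 in shCREPT and 165.57, 175.71 and 162.61 in shControl. All shCREPT libraries were below all shControl libraries for THBS1. LRP1, an endocytic receptor, was 6.96-fold lower and the keratin KRT15 4.28-fold lower. STEAP3, a metalloreductase, was 2.18-fold lower, with a log2 change of −1.09, KITLG, the ligand of the receptor KIT, 2.42-fold lower, and IGFBP3, which binds insulin-like growth factors, 2.20-fold lower. The call of IGFBP3 was lost under median-of-ratios rescaling (log2 change −0.23, limma adjusted p = 0.397). GRHL3 and SERPINB5 were too low to be tested and are marked down and up in the authors' deposited table. The choice to name SFN, XAF1, KITLG, IGFBP3, GRHL3, SERPINB5 and the genes with no row was made after their values were seen.

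Of 26 members and regulators of the p53 family, 4 have a row. TP73, a relative of p53 that can activate several of the same targets, rose 2.67-fold, with 8.78, 8.69 and 7.23 in shCREPT and 2.27, 3.06 and 3.93 in shControl. AURKB and PLK1, mitotic kinases reported to act on p53, rose 2.68-fold and 2.15-fold. Both also stand in the list of cell cycle genes described below, so those lists are not separate. All 3 tested genes of the regulator list rose (100%, against 40.6% of all tested genes). TP63 was too low to be tested, at 0.51, 0.44 and 0.10 in shCREPT and 0.70, 0.67 and 0.73 in shControl.

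Of 30 growth arrest genes 26 have no row, and of the 4 tested GADD45A rose (25%, against 40.6% of all tested genes). Its paralogs GADD45B and GADD45G, which share its partners, have no row, and neither do the other genes first named for growth arrest and DNA damage, DDIT3 and PPP1R15A. The other 3 tested genes fell. TXNIP, which binds thioredoxin and restrains glucose uptake, had 12.11, 10.07 and 12.95 in shCREPT and 64.3, 55.53 and 60.71 in shControl. GAS6, the ligand of the receptor AXL, was 3.33-fold lower. NDRG1, a stress-responsive gene raised by hypoxia, was 1.96-fold lower, and its call was lost under median-of-ratios rescaling (log2 change −0.08, limma adjusted p = 0.724). None of 16 binding partners and effectors of GADD45 proteins, PCNA, CDK1, CCNB1 and MAP3K4 among them, has a row.

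GDF15 is also a target of ATF4 and CHOP, and of 38 genes of that integrated stress response 5 have a row and were tested. GDF15 rose (20.0%, against 40.6% of all tested genes) and the other 4 fell. DDIT4, an inhibitor of mTORC1, had 91.81, 88.94 and 100.27 in shCREPT and 270.34, 248.14 and 240.53 in shControl. HERPUD1, which serves protein disposal at the endoplasmic reticulum, was 2.54-fold lower and the transcription factor CEBPA 3.71-fold lower. CEBPA was low, at 0.85 to 1.19 in shCREPT, and its change on the log2(value + 1) scale was −1.24. The lipoprotein receptor VLDLR was 2.15-fold lower and lost its call under median-of-ratios rescaling (log2 change −0.22, limma adjusted p = 0.0537). ATF4, DDIT3, ATF3, TRIB3 and ASNS have no row. Of 28 genes for the processing, receptors and relatives of GDF15, 3 have a row: BMP6, a bone morphogenetic protein, rose 3.52-fold, TGFB3 was 2.78-fold lower, and INHBA, an activin subunit, fell short of the filter and is marked up in the authors' deposited table. BMP6 was low, at 0.46 to 0.75 in shControl, and its change on the log2(value + 1) scale was 0.98. GFRAL, RET and the protease gene FURIN have no row. Of 23 autophagy genes listed with TP53INP1, BNIP3L, a mitophagy receptor, has a row. It was 1.63-fold lower and turned sign under median-of-ratios rescaling (log2 change 0.18, limma adjusted p = 0.252).

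Through CDKN1A and the DREAM complex, p53 is known to lower genes of replication and mitosis. Of 45 such genes 16 have a row, and all 16 rose (40.6% of all tested genes rose), with a median log2 change of 1.11; 29 have no row. AURKB and PLK1, named above as p53 regulators, are among these 16. CDC25A, the phosphatase that activates cyclin-dependent kinases, had 22.82, 24.88 and 21.99 in shCREPT and 7.85, 7.63 and 7.6 in shControl. Every shCREPT library was above every shControl library for CDC25A. MCM10, a replication initiation factor, rose 2.85-fold, CDC6, which loads the replicative helicase, rose 2.33-fold, and UHRF1, which keeps DNA methylation through replication, rose 2.33-fold. E2F1 and the cyclin gene CCNA2 rose 2.11-fold and 2.02-fold. GADD45A and GDF15 rose in the same libraries in which these 16 cell cycle genes rose and in which TP53INP1 fell.

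**Figure D5:**
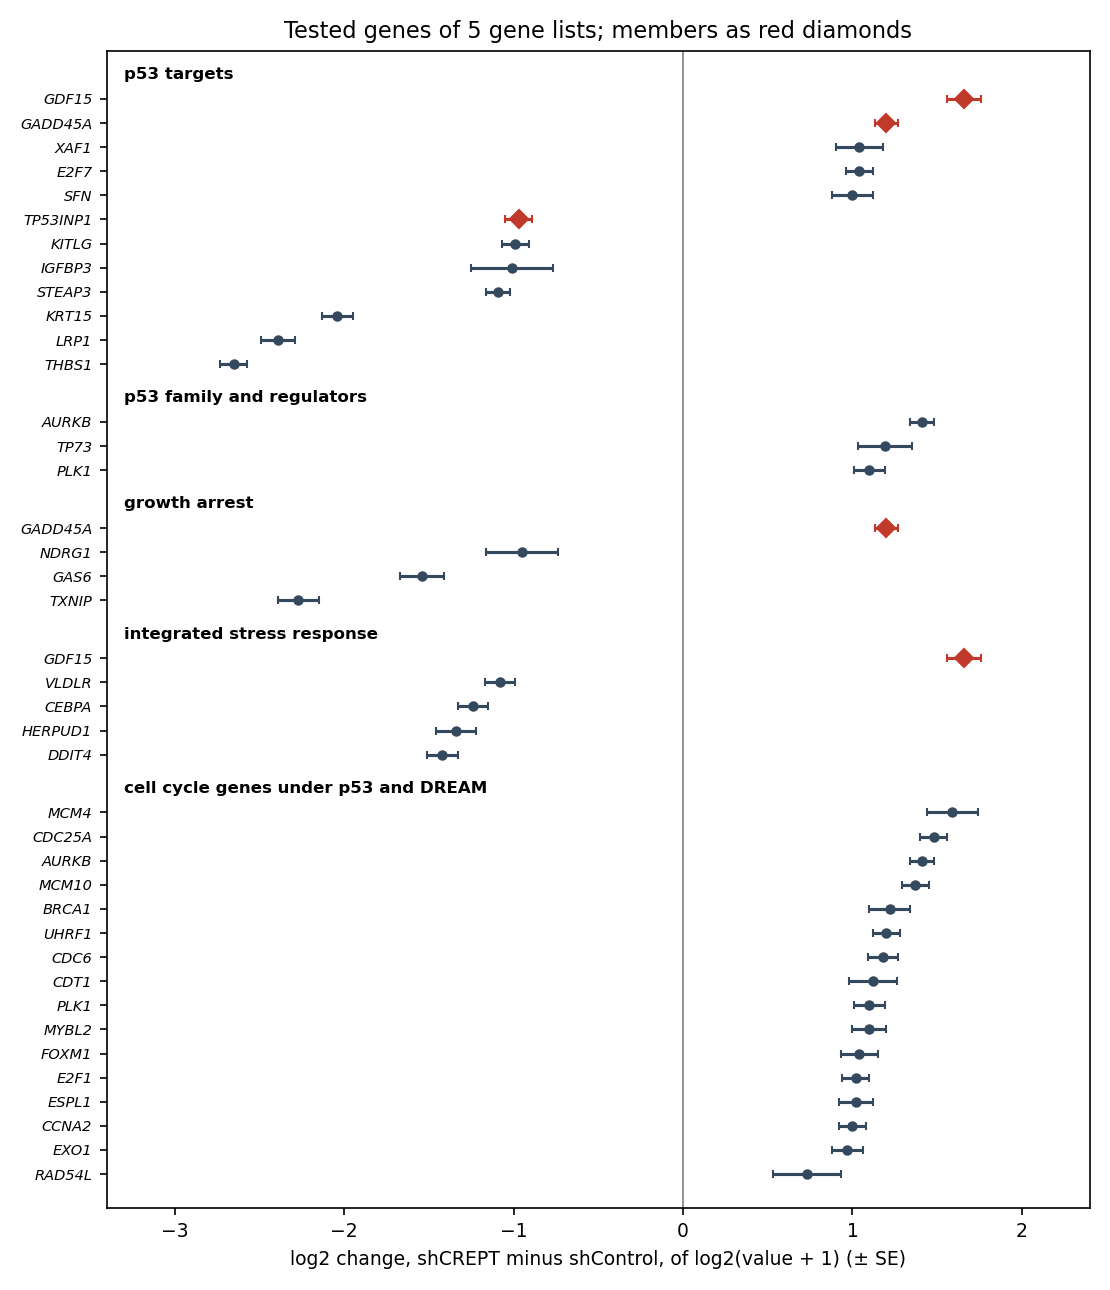
Log2 change of shCREPT minus shControl with its SE (horizontal axis) for every tested gene of 5 gene lists (rows, grouped by list), with GADD45A, GDF15 and TP53INP1 as red diamonds. The p53 targets stand on both sides of 0 (5 higher, 7 lower), GADD45A and GDF15 are the lone rises among the tested genes of the growth arrest and stress response lists, and all 16 cell cycle genes stand above 0. AURKB and PLK1 are drawn under both the p53 regulators and the cell cycle genes, and GADD45A and GDF15 also under the p53 targets.

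The genes most like each of the 3 over the 6 libraries were found by the root mean square difference between profiles of log2(value + 1), each centred on its own mean, among 1183 tested genes. For GADD45A these were the RNA helicase DHX33 (0.0273 on the log2 scale), WRAP53 (0.0288) and the membrane protein ELFN2 (0.0294), and 44 genes lay within 0.1. WRAP53, a telomerase and Cajal body protein, had 28.66, 28.22 and 27.90 in shCREPT and 12.01, 12.39 and 11.24 in shControl. ELFN2 was low, at 0.8 to 0.81 in shControl. It rose 3.83-fold by the ratio of means, against 2.33-fold for GADD45A. At such low values the added 1 shrinks the change, so a near profile does not mean a like fold.

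For GDF15 the nearest profiles were farther away, namely the ferritin receptor SCARA5 (0.0764), the matricellular protein TINAGL1 (0.0780) and the semaphorin SEMA6B (0.0919), and 5 genes lay within 0.1. TINAGL1 had 308.88, 305.80 and 314.78 in shCREPT and 95.25, 98.06 and 101.85 in shControl. SCARA5 was low, at 0.32 to 0.48 in shControl, and rose 8.78-fold by the ratio of means, against 3.25-fold for GDF15. Its nearness therefore depends on the added 1. For TP53INP1 they were CCDC24 (0.0343), the thioredoxin-domain protein TXNDC15 (0.0386) and ENSG00000230699 (0.0439), which has no symbol in the file, and 52 genes lay within 0.1. TXNDC15 had 30.21, 29.86 and 28.48 in shCREPT and 62.08, 58.03 and 58.05 in shControl. ENSG00000230699 was low too, at 0.49 to 0.63 in shCREPT, and was 3.95-fold lower, against 2.45-fold for TP53INP1. Likeness here rests on the 1 difference between groups for which every gene was listed.

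Few neighbours of the 3 genes are listed, as is true of the table as a whole, in which 6.13% of the 19922 protein-coding genes of GENCODE v29 have a row. Of 15 protein-coding genes within 1 Mb of GADD45A, DIRAS3 has a row, and of 13 around TP53INP1 none has. Of 71 around GDF15, in a gene-dense part of chromosome 19, 5 have a row, namely CCDC194, SLC27A1, IL12RB1, IQCN and MEF2B. The neighbours were chosen for naming after their rows were seen, and their values were not compared with those of the 3 genes.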

How the data were processed

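The authors deposited a normalized expression signal for each library, written with 2 decimals (per the file headers); no source used here gives their method. HISAT2, HTSeq and GRCh38 are named in the submitters' processing notes, without versions or roles. Beside it the authors deposited their ratio of groups (the fold), a log2 fold, and p-values before and after adjustment, and all 1630 listed genes carry their mark of significance. Low values took 28 to 29 of the 29 possible hundredths below 0.30, so no single-read step was visible, depth is unknown and no count test was run.

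Values were compared as log2(value + 1) with limma 3.58.1 in R 4.3.3 over the 1184 genes with at least 1 in at least 3 libraries (446 left out), Benjamini-Hochberg adjustment and a threshold of 0.05. P-values cover the spread among these libraries, possibly a technical one. In a test of the fit on simulated data for 1184 genes it called 86.6% of genes given a log2 change of 1 and 1.02% of unchanged ones. There 984 genes were unchanged, whereas every gene of the table had been selected as changed, so these rates do not carry over to it. No library repeats another: each pair differs in 96.0% of genes or more. Over all tested genes, libraries with the same number showed no shared deviation (r = −0.109, 0.018 and −0.179), so the numbers were not used as pairs. Single genes can differ from this, and NDRG1 and IGFBP3 were lowest in replicate 2 of both groups.

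Ratios used exact permutation tests in Python 3.11.15 with scipy 1.17.1; figures used matplotlib 3.10.9. Coordinates are from GENCODE 29. Of the table's identifiers 1549 matched it and 81 did not. The members and the 8 gene lists and 9 marker lists were chosen with earlier results of these data known. Named genes were the members, every gene with a row in lists with at most 12 such genes, the 8 with the smallest adjusted p in longer lists, and the 3 nearest profiles of each member. The alternatives tried were pseudocounts of 0.1 and 5, a minimum of 10 or none, median-of-ratios rescaling, quantile normalization, a replicate block, limma's trend and robust options, and each library left out. Some genes of these lists are not reported here.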

Additional observations from a re-analysis of the deposited data

How the results depend on the processing

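GADD45A and GDF15 kept their direction and call under all 14 alternatives, and TP53INP1 under the 13 that could test it, since its values lie under the minimum of 10. Log2 changes ranged from 1.11 to 2.06 for GADD45A, from 1.5 to 2.51 for GDF15 and from −1.25 to −0.31 for TP53INP1; leaving out each library in turn gave 1.17 to 1.21, 1.59 to 1.73 and −1.0 to −0.93. With the replicate block the changes were 1.20, 1.66 and −0.97 (limma adjusted p = 0.000482, 0.000471 and 0.000644); the table then had 479 genes higher and 677 lower, and of the 58 tested genes of the lists, markers and nearest profiles all 58 kept their call and sign with the block. The minimum of 10 left 487 genes to test and called 214 higher and 271 lower, with 4 p53 targets lower instead of 7, since fewer genes were tested. Median-of-ratios rescaling called 377 lower in the table, since over listed genes that are mostly marked down it raised the shCREPT libraries. The within-library ratios kept their sign under all 8 alternatives each, with differences of 0.38 to 0.56 for GDF15 over GADD45A, 1.6 to 2.47 for GADD45A over TP53INP1 and 1.99 to 2.95 for GDF15 over TP53INP1. The sign of the ratios to TP53INP1 followed from the listing of a gene marked up against a gene marked down. With 3 libraries per group, the exact permutation test of these ratios cannot reach a p of 0.05. The kept signs of the ratios therefore say nothing of significance. What depth limits could not be judged, since it is unknown.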
